A study of Mus musculus with 4 samples.

Results

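The T cell-attracting CXC chemokines Cxcl9, Cxcl10, Cxcl16 and Cxcl13 and the receptors Cxcr3, Cxcr6 and Cxcr5 were followed across the cell classes of MC38 tumors by single-cell RNA-seq. These 7 genes were taken by symbol from the 32285 genes of the count matrices, and each symbol was found once. MC38 is a mouse colon adenocarcinoma line. Cells that were WT for RAC1, or that carried the RAC1 A159V substitution on both alleles after CRISPR editing, were grown under the skin of C57BL/6 mice, and the mice received an antibody against PD1 or an isotype control IgG. The mutation was in the injected tumor cells, and immune and stromal cells of the host were not edited. The study made several A159V clones and by default presented 1 of them. The groups, 4 in all, are named by genotype and antibody (WT or A159V, IgG or anti-PD1) and held 1 library each, and how many tumors went into a library was not given in the sources used here. Beads were used to part CD45+ from CD45− cells, which were mixed again at a set ratio before loading. The sizes of classes from different fractions thus do not give the makeup of a tumor, and those within a fraction rest on 1 library per group.

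Chemokines bind receptors coupled to G proteins and steer the movement of leukocytes along their gradients. CXCL9 and CXCL10 are ligands of CXCR3, which activated T cells and NK cells carry, and their transcription is induced by interferon gamma, with CXCL10 also answering to type I interferon. CXCL16 is made as a membrane-bound ligand that can be shed, and its receptor CXCR6 marks effector and resident T cells in tumors. CXCL13 draws cells with CXCR5, mostly B cells and follicular helper T cells, and is known from stromal cells of lymphoid follicles.

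Where 4 values follow each other, the order is WT IgG and WT anti-PD1, then A159V IgG, then A159V anti-PD1. The matrices gave 7802, 7430, 8685 and 9311 cells, of which 6867, 6466, 7603 and 8248 were analyzed, with median depths of 4160, 4062, 3292 and 3460.5 UMIs. Classes were named from marker genes of clusters and end in "-like". WT anti-PD1 stood apart from the other libraries, with 57 tumor-like cells against 2009 to 2794, 1565 stromal-like cells against 147 to 198 and 53 monocyte-like cells against 929 to 1306. Of its 537 CD8 T-like cells 456, and of its 1442 macrophage-like cells 750, 408 and 214, were in clusters whose mean marker score was higher for stromal genes than for their own list (1.40 against 1.23 in the first, and 1.60 against 0.909, 0.669 against 0.483 and 1.85 against 1.32 in the others). The summed level of 8 stromal markers was highest in WT anti-PD1 in other immune classes as well, among them NK-like and neutrophil-like cells. The part of stromal RNA in the values of this library was not tested. Any 2 libraries shared 10 to 16 cell barcodes. The epithelial genes Krt8, Krt18 and Epcam were nearly absent from tumor-like cells, which were named from Prl2c2, Prl2c3, Rhox5 and Hmga2. UMIs of 3′ ends could not show the edited base of Rac1. A level is the sum of a gene's UMIs over the cells of a class per 1000000 UMIs of those cells (CPM), with an exact Poisson 95% interval. A difference between 2 libraries is the log2 ratio of CPM + 1. Intervals cover counting error only, since no group had a replicate, and no test of a condition was possible. Library and group cannot be told apart. Ratios were taken in classes with at least 50 cells in each of 2 libraries. A pair of gene and class was counted as past 2-fold where the level reached 10 CPM in 1 of the libraries, the log2 ratio was at least 1 or at most -1, and its interval lay on 1 side of 0. The share of all genes at the minimum level that met this rule is given as the background.

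Cxcl9 and Cxcl10 are neighbors on the minus strand of chromosome 5 of GRCm38, at chr5:92321347-92328079 and chr5:92346638-92348889, with 18558 bases between them. The 250 bases before the RefSeq start sites of the pair are shown because the levels of these neighbors moved differently between the libraries. Capitals mark matches, on either strand, to the ISRE core (GAAA, 2 bases of any kind, GAAA), which interferon regulatory factors and STAT complexes bind, or to the kappaB pattern (GGGA, 4 bases of any kind, CC). The Cxcl9 window is chr5:92328080-92328329 and the Cxcl10 window chr5:92348890-92349139, each written 5′ to 3′ on the minus strand.
Cxcl9: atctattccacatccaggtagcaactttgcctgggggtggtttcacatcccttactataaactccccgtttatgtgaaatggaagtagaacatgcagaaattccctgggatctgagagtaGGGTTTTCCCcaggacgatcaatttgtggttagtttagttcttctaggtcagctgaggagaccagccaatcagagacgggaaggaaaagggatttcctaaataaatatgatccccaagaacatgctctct
Cxcl10: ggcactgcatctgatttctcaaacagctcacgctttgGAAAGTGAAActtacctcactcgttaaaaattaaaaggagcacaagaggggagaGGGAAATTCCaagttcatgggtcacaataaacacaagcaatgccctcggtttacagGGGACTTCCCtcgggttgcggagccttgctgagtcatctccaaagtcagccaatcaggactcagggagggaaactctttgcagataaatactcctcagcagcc
The Cxcl9 window held 1 kappaB match, GGGTTTTCCC, at bases -130 to -121 from the start site. The Cxcl10 window held 1 ISRE core, GAAAGTGAAA, at -213 to -204, and 2 kappaB matches, GGGAAATTCC at -159 to -150 and GGGACTTCCC at -103 to -94. The gamma-activated sequence (GAS) pattern TTCNNNGAA was in neither window by these letters. No match overlapped another. Among 32851 RefSeq promoter windows of the same length, 17.6% held a kappaB match, 2.98% an ISRE core and 7.02% a GAS pattern. Sequences were matched for 5 of the 7 genes.

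Cxcl13 lies on the same chromosome at chr5:95956951-95961068 (plus strand), and Cxcl16 at chr11:70453983-70459984 (minus strand). The receptors lie at chrX:101731535-101734269 (Cxcr3, minus strand), chr9:123806475-123811760 (Cxcr6, plus strand) and chr9:44511787-44561877 (Cxcr5, minus strand). Cxcl10, Cxcl16, Cxcr6 and Cxcr5 each overlap 1 annotated gene on the opposite strand (Art3, Zmynd15, Fyco1 and Bcl9l). None of the 7 overlaps a gene on its own strand.

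The ligands differed in the classes that held them. In WT IgG the level of Cxcl9 was 301 (278 to 324) CPM in stromal-like, 232 (218 to 247) in monocyte-like, 201 (146 to 271) in mature dendritic cell (DC)-like, 183 (157 to 211) in cDC2-like and 167 (155 to 180.1) in macrophage-like cells. The intervals of mature DC-like cells overlapped those of monocyte-like, cDC2-like and macrophage-like cells. Tumor-like cells had 34.5 (33.1 to 36) CPM, and CD8 T-like and NK-like cells had under 1 CPM, which is the level of stray RNA. Cxcl10 was 3635 (3578 to 3692) CPM in monocyte-like, 2023 (1803 to 2263) in neutrophil-like, 1716 (1637 to 1799) in cDC2-like and 1543 (1534 to 1553) in tumor-like cells. Macrophage-like and mature DC-like cells had less Cxcl10 than tumor-like cells. Tumor-like cells thus held Cxcl10 within the range of the myeloid classes, and Cxcl9 well below the monocyte-like, macrophage-like, cDC2-like and mature DC-like cells. Cxcl16 was led by mature DC-like cells at 679 (573 to 799) CPM, followed by macrophage-like cells at 379 (360.1 to 398). In tumor-like cells Cxcl16 was 0.835 CPM. Cxcl13 was a stromal gene here, at 472 (444 to 501) CPM in stromal-like cells, with no UMI in CD8 T-like or conventional CD4 T-like cells of any library.

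**Figure D1:**
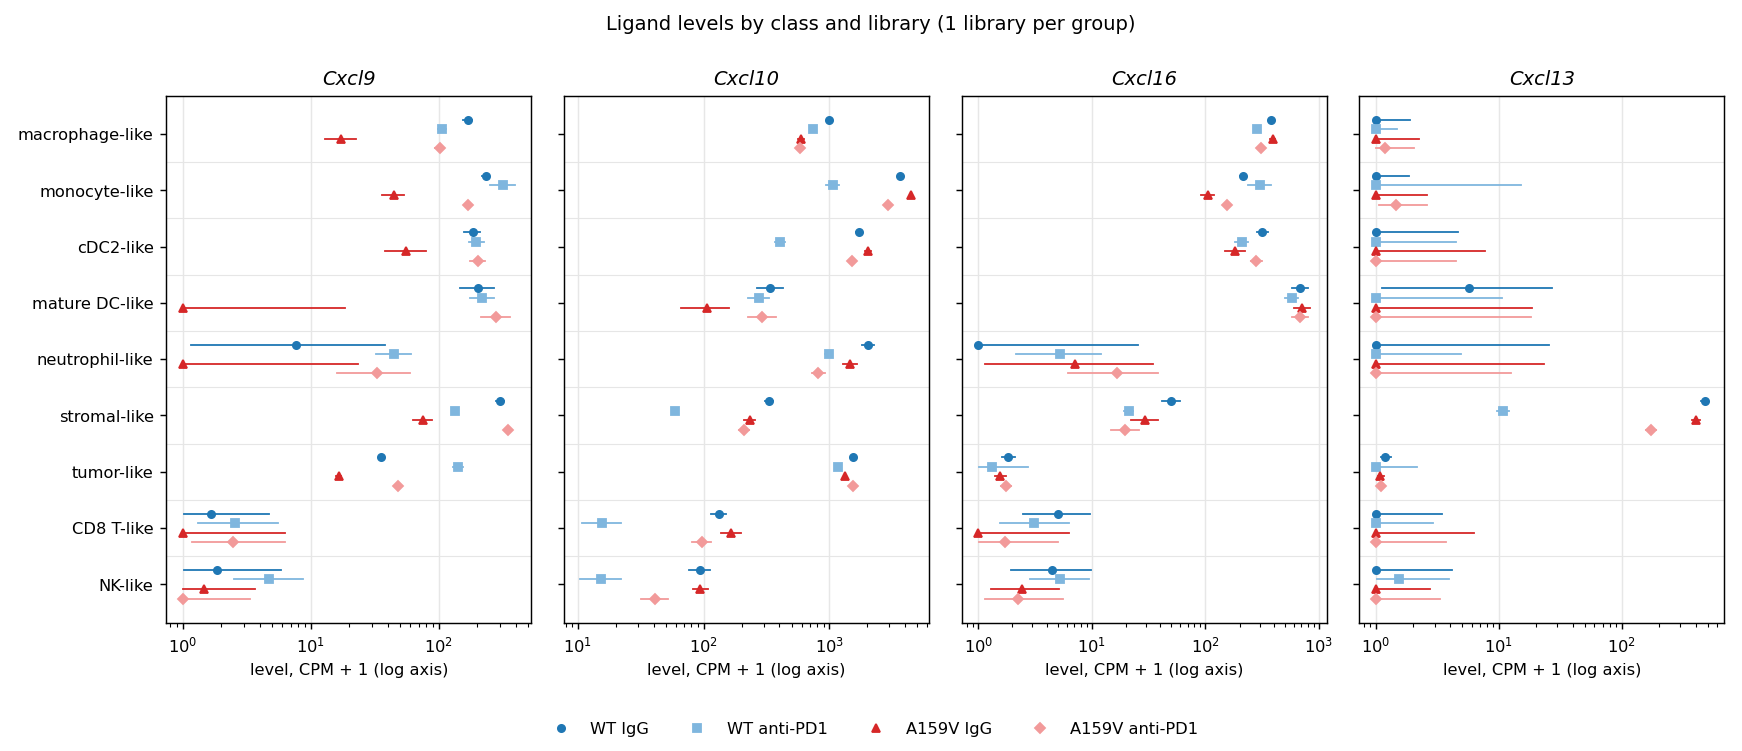
Level of each ligand as CPM + 1 on a log axis, by class (rows) and library (color and marker), for classes with at least 50 cells, with exact Poisson 95% intervals. The triangle of A159V IgG lies left of the other libraries for Cxcl9 in most rows, as in macrophage-like cells at 16.1 CPM against 101 to 167, and lies within or right of them for Cxcl10 in monocyte-like cells.

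The first question of the design was how the tumor genotype goes with the microenvironment of tumors given the isotype control. Between the IgG libraries Cxcl9 was lower with the A159V genotype in 6 of the 7 ligand-bearing classes that had at least 50 cells in every library. The exception was neutrophil-like cells, with 1 UMI in WT IgG and 0 in A159V IgG. In macrophage-like cells its level was 167 CPM in WT IgG and 105 in WT anti-PD1, and 16.1 in A159V IgG against 101 in the A159V anti-PD1 library. A159V IgG was the single low library, and the other libraries lay within 101 to 167 CPM. The A159V IgG level was 0.102 times the WT IgG level on the CPM + 1 scale, a log2 ratio of -3.30 (-3.70 to -2.89). In monocyte-like cells the levels were 232 CPM in WT IgG and 316 in WT anti-PD1, and 43.4 in A159V IgG against 169 in the A159V anti-PD1 library, and the log2 ratio of the IgG libraries, A159V over WT, was -2.39 (-2.68 to -2.10). In cDC2-like cells, the conventional DCs that present antigen mostly to CD4 T cells, the levels were 183, 196, 54.9 and 201 CPM with a log2 ratio of -1.72 (-2.26 to -1.17). Again A159V IgG alone was low. In stromal-like cells the levels were 301, 132, 74 and 346 CPM, with a log2 ratio of -2.01 (-2.28 to -1.74). In tumor-like cells they were 34.5, 141, 15.5 and 47.5 CPM, with a log2 ratio of -1.11 (-1.20 to -1.01), and 8 macrophage markers summed to 22.2, 40.5, 21.8 and 26.9 CPM there. The 8 stromal markers summed to 431, 447, 113 and 90.7 CPM in tumor-like cells, lower with the A159V genotype. Among tumor-like cells with no UMI of the stromal genes Col1a1 and Dcn, of Lyz2 and C1qa or of Cd3e and Trac, the log2 ratio was -1.40, and the tumor-like ratio was past 2-fold under 9 of 13 alternatives.

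Mature DC-like cells, which carry antigen and express Ccr7, had 43, 84, 0 and 60 UMIs of Cxcl9. Against a floor of 3 UMIs in the A159V IgG class, the WT IgG level was at least 14.1-fold higher. Only 12 of the 60 WT IgG cells held these UMIs, and 1 cell held 44.2% of them. Nonclassical monocyte-like cells had 73 UMIs in WT IgG and 3 in A159V IgG, a ratio of levels of 0.0615 (0.0124 to 0.187). A class with too few cells for a ratio went the other way. The cDC1-like cells, which cross-present antigen to CD8 T cells, had 176, 10.4, 415 and 406 CPM, from 23, 57, 20 and 22 cells.

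Over the 4 ligands and 7 classes, 28 pairs in all and 19 at the minimum level, 8 were past 2-fold lower for A159V IgG and 0 were higher. The background over all genes of these classes was 3.27% lower and 3.9% higher. Of the 8 pairs, 6 were Cxcl9 in macrophage-like, monocyte-like, cDC2-like, mature DC-like, stromal-like and tumor-like cells. The others were Cxcl10 in mature DC-like cells, with a log2 ratio of -1.68 (-2.37 to -1.0), and Cxcl16 in monocyte-like cells, with -1.04 (-1.24 to -0.83). The Cxcl16 pair lay close to the 2-fold limit and was no longer past it under 8 of 13 alternatives.

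Within single clusters of the same libraries, which are no replicates, the low Cxcl9 of A159V IgG was measured apart from the mix of clusters. The cDC2-like, mature DC-like and nonclassical monocyte-like clusters are these whole classes, so they repeat the class values. The share of all genes that were lower in every cluster was not taken. In 10 of 10 myeloid clusters with at least 50 cells in each library, the log2 ratio of the IgG libraries, A159V over WT, was below 0 with its interval, with a median of -2.51. In 8 of them, with UMIs in both libraries, it ranged from -3.81 to -1.36, and the other clusters had 0 UMIs in A159V IgG, so that the median does not depend on the value given to them. The 4 comparable clusters of tumor-like and stromal-like cells were also lower, from -2.21 in the stromal-like cluster led by Tnc and Col12a1 to -0.38 in the tumor-like cluster led by Prl2c3. Tumor-like cells of the IgG libraries came from different clusters, 788 of 2009 from the Prl2c3-led cluster in WT IgG and 2624 of 2794 in A159V IgG, and in the cluster led by Tafa1 and Sema3a the log2 ratio was -1.67. In the macrophage-like cluster led by Negr1 and Cd72, Cxcl9 was 276 CPM in WT IgG, and 45 in A159V IgG against 249 in A159V anti-PD1. In the macrophage-like cluster led by Cxcl3 and Nos2 it was 184, 0 and 91.5 CPM, the A159V IgG value from 52 cells and the WT IgG level at least 8.7-fold higher against the floor of 3 UMIs. For Cxcl10 the same 10 myeloid clusters went in different directions, 3 higher and 7 lower in A159V IgG, with a median log2 ratio of -0.38.

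**Figure D2:**
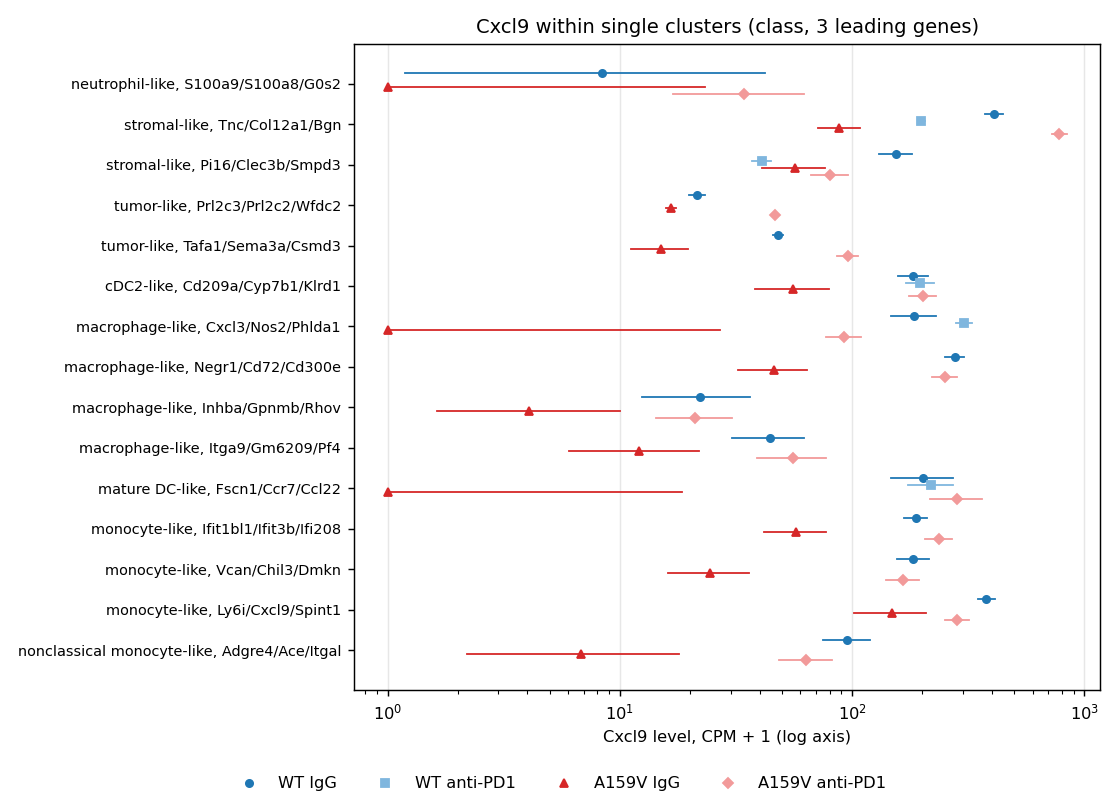
Level of Cxcl9 as CPM + 1 on a log axis within single clusters that had at least 50 cells in WT IgG and in A159V IgG, named by class and 3 leading genes, with Poisson 95% intervals; a library with under 50 cells in a cluster is not drawn. The A159V IgG triangle lies left of the WT IgG circle in every row, for example at 45 against 276 CPM in the Negr1-led macrophage-like cluster, though the neutrophil-like row rests on 1 UMI.

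Cxcl10 did not share this pattern. In macrophage-like cells its level was 983 CPM in WT IgG and 746 in WT anti-PD1, and 594 in A159V IgG against 583 in the A159V anti-PD1 library, so that the A159V libraries were the lower pair, and the log2 ratio of the IgG libraries, A159V over WT, was -0.73 (-0.81 to -0.64). In monocyte-like cells the levels were 3635 CPM in WT IgG and 1063 in WT anti-PD1, and 4489 in A159V IgG against 2938 in the A159V anti-PD1 library, with A159V IgG the highest and WT anti-PD1 the lowest library. In tumor-like cells they were 1543, 1176, 1341 and 1536 CPM, which differed by a log2 ratio of -0.20 (-0.21 to -0.19) between the IgG libraries. Cxcl10 was also counted in CD8 T-like cells, at 130.4, 14.6, 165 and 95.4 CPM, and in NK-like cells, at 91.8, 14.4, 93.4 and 39.8 CPM. Rhox5, a tumor gene here, had 9.32, 0.522, 25.7 and 30.1 CPM in CD8 T-like cells, and the tumor-like cells held 76.9%, 6.62%, 86.9% and 80.8% of all UMIs of the libraries. Cxcl10 and Rhox5 were both lowest in WT anti-PD1. In CD8 T-like cells of the other libraries Rhox5 was lowest in WT IgG and Cxcl10 in A159V anti-PD1. In conventional CD4 T-like cells of these libraries Cxcl10 was lowest in A159V IgG, at 92.7 CPM. The part of stray RNA in these values was not tested, and no expression is read from Cxcl10 in T-like and NK-like cells.

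Cxcl16 was past 2-fold lower in 2 classes in A159V IgG over WT IgG. The log2 ratio was -1.04 (-1.24 to -0.83) in monocyte-like cells, past 2-fold under 5 of 13 alternatives, and -1.09 (-2.03 to -0.16) in nonclassical monocyte-like cells, with 11 UMIs against 36, past 2-fold under 3 of 12. In WT anti-PD1 over WT IgG it was past 2-fold in 1 class, where stromal-like cells had a log2 ratio of -1.25 (-1.54 to -0.96) that turned above 0 under 2 alternatives. In A159V anti-PD1 over A159V IgG the 1 class past 2-fold, conventional CD4 T-like cells, had 3 UMIs against 0 and rests on the added 1 CPM. Mature DC-like cells had 679 CPM in WT IgG and 577 in WT anti-PD1, and 712 in A159V IgG against 679.9 in the A159V anti-PD1 library, with overlapping intervals in all 4 libraries. Macrophage-like cells had 379, 282, 389 and 309 CPM, the IgG libraries lying above the anti-PD1 libraries for each genotype. Monocyte-like cells had 215, 301, 104 and 153 CPM and cDC2-like cells 315, 209, 183 and 281, with A159V IgG the lowest library in both classes.

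The second question was how anti-PD1 goes with these genes in WT and in A159V tumors. WT IgG is the control of 2 of the comparisons, and A159V IgG enters 2 as well, so the genotype comparison and the A159V comparison both hold the low Cxcl9 of A159V IgG. In A159V tumors 8 pairs of ligand and class were past 2-fold higher with anti-PD1 and 1 was lower, of 28 pairs with 21 at the minimum, beside a background of 2.54% and 3%. Cxcl9 made up 7 of the 8, and its pair in neutrophil-like cells is past 2-fold only through the added 1 CPM. Its log2 ratio was 2.57 (2.16 to 2.98) in macrophage-like, 1.94 (1.64 to 2.23) in monocyte-like, 1.85 (1.31 to 2.40) in cDC2-like, 2.21 (1.94 to 2.47) in stromal-like and 1.55 (1.47 to 1.64) in tumor-like cells. Mature DC-like cells went from 0 to 60 UMIs, at least 19.8-fold higher, and neutrophil-like cells from 0 to 10 UMIs, at least 1.74-fold higher. The levels of A159V anti-PD1 lay at 201 CPM in cDC2-like and 101 in macrophage-like cells, against 183 and 167 in WT IgG. Within clusters Cxcl9 was higher with anti-PD1 in 11 of 11 myeloid clusters of A159V tumors, with a median log2 ratio of 2.44, and in 5 of 5 other clusters. Some of these clusters are whole classes, and the share of all genes higher in every cluster was not taken.

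In WT tumors 2 pairs were past 2-fold higher with anti-PD1 and 7 were lower, of 28 with 20 at the minimum, beside a background of 9.21% and 6.46%. Cxcl9 in macrophage-like cells had a log2 ratio of -0.66 (-0.81 to -0.51), in monocyte-like cells 0.44 (0.12 to 0.77), in cDC2-like cells 0.10 (-0.18 to 0.39), in mature DC-like cells 0.12 (-0.41 to 0.64) and in stromal-like cells -1.18 (-1.30 to -1.06). Of the 1442 macrophage-like cells of WT anti-PD1, 750 were in a cluster led by Lpl and Mmp12 that held few cells of other libraries, with 35.1 CPM of Cxcl9. In the shared Cxcl3-led cluster the level was 303 CPM against 184 in WT IgG. The 3 myeloid clusters with enough cells in both WT libraries had log2 ratios of Cxcl9 from 0.10 to 0.71, and in 1 of them the interval lay above 0. The cDC2-like and mature DC-like clusters among them were the whole of these classes. In the 2 comparable stromal-like clusters the log2 ratios of Cxcl9 ran from -1.92 to -1.04. The macrophage-like ratio ranged from -1.98 to -0.25 under other settings, and the stromal-like ratio was 0.077 where each library was clustered on its own. The higher pairs were Cxcl9 in tumor-like cells, 2.0 (1.85 to 2.14), and in neutrophil-like cells. The tumor-like value rested on 57 cells, of which 1 held 41.4% of the UMIs, and without the top cell of each library the log2 ratio was 1.31. The neutrophil-like value compared 41 UMIs with 1, a ratio of levels of 6.63 (1.13 to 268), and it turned below 0 under 3 alternatives. The 8 stromal markers summed to 1191.5 CPM in neutrophil-like cells of WT anti-PD1 and to 52.9 in those of WT IgG. Of the 7 lower pairs 4 were Cxcl10, with log2 ratios of -1.77 (-1.94 to -1.60) in monocyte-like, -2.08 (-2.23 to -1.93) in cDC2-like, -1.04 (-1.22 to -0.85) in neutrophil-like and -2.48 (-2.61 to -2.35) in stromal-like cells. The corresponding log2 ratios in A159V tumors were -0.61, -0.43, -0.85 and -0.14. In the 3 comparable myeloid clusters of WT tumors Cxcl10 was higher in 1 and lower in 1 beyond its interval, with a median of -0.30. None of these clusters was monocyte-like or neutrophil-like, and the lower one was the whole cDC2-like class. In the 2 comparable stromal-like clusters Cxcl10 was lower, with log2 ratios from -2.64 to -2.33. The cluster led by Ifit1bl1 held 454 of 1162 monocyte-like cells in WT IgG and 6 of 53 in WT anti-PD1. A neutrophil-like cluster held 556 of 561 cells in WT anti-PD1 and 9 of 96 in WT IgG. The monocyte-like ratio was past 2-fold under 8 of 10 alternatives and the neutrophil-like ratio under 9 of 12. The median of all genes shifted by up to 0.35 on the log2 scale in WT anti-PD1 over WT IgG, in NK-like cells, and by 0.31 in monocyte-like cells.

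**Figure D3:**
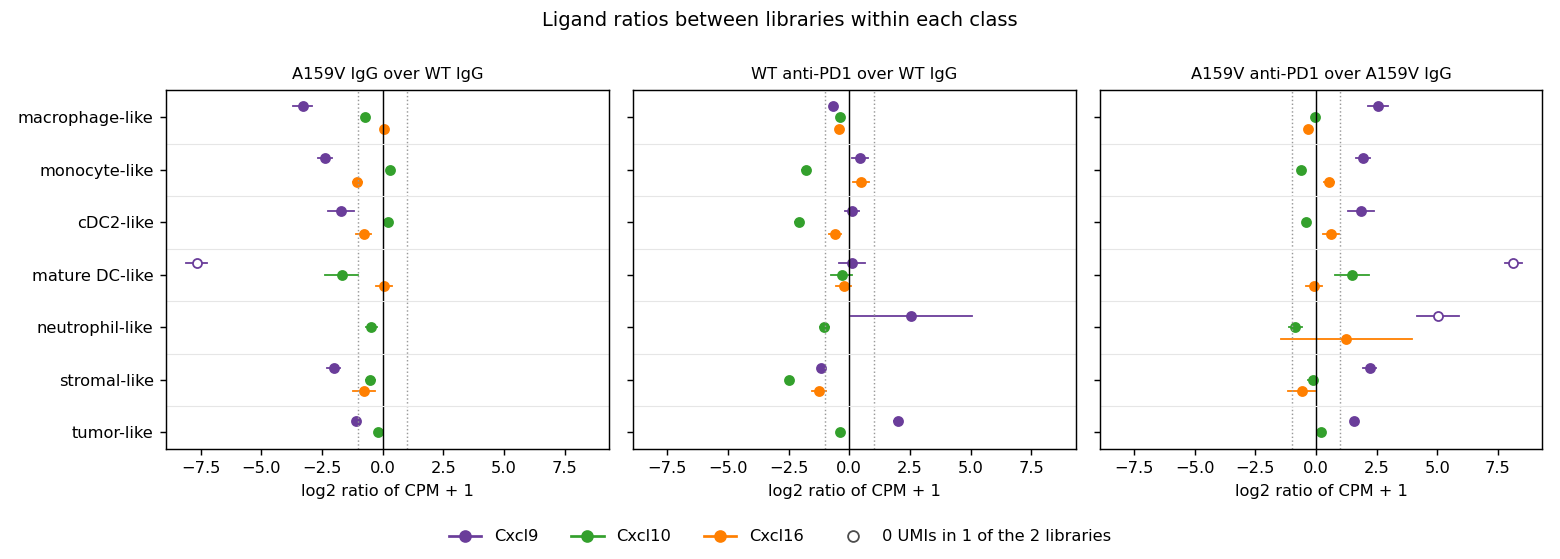
Log2 ratio of CPM + 1 of Cxcl9, Cxcl10 and Cxcl16 between 2 libraries within each class, with 95% counting intervals, for pairs at the minimum level; open points mark 0 UMIs in 1 library, where the plotted ratio depends on the added 1 CPM, and dotted lines mark 2-fold. Cxcl9 lies left of 0 in A159V IgG over WT IgG (-3.30 in macrophage-like cells) and right of 0 in A159V anti-PD1 over A159V IgG (2.57), comparisons that share the A159V IgG library.

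Cxcl13 was a stromal ligand that was lower with anti-PD1 in both genotypes. Stromal-like cells held 97.2% to 99.6% of its UMIs in each library, at 472 CPM in WT IgG and 9.82 in WT anti-PD1, and 399.7 in A159V IgG against 172 in the A159V anti-PD1 library. It was lower with anti-PD1 in WT tumors, with a log2 ratio of -5.45 (-5.64 to -5.26), and in A159V tumors, with -1.21 (-1.39 to -1.04). Between the IgG libraries it was -0.24 (-0.38 to -0.10). Cxcl9, Cxcl10 and Cxcl16 were also past 2-fold lower in stromal-like cells of WT anti-PD1 over WT IgG, with log2 ratios of -1.18, -2.48 and -1.25. Nearly all of it lay in the stromal-like cluster led by Pi16 and Clec3b, genes of adventitial fibroblasts, where the levels were 1093, 22.9, 922 and 276 CPM, against 0.423 to 22.6 CPM in the cluster led by Tnc and Col12a1. Few cells carried the values: 1 cell held 39.7% of the A159V IgG UMIs, and without the top cell of each library the A159V ratio was no longer past 2-fold. The WT ratio stayed past 2-fold under all 13 alternatives.

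In macrophage-like cells Cxcl9 came from fewer cells than Cxcl10. In macrophage-like cells 12.4%, 11.3%, 1.96% and 8.39% of cells held a UMI of Cxcl9. After each cell was thinned to 1500 UMIs, since depth differed, the shares were 8.12, 7.64, 1.42 and 5.56%. A159V IgG was the low library on either count. The thinned shares for Cxcl10 were 42.4, 40.6, 32.5 and 33.5%. CD8 T-like cells, at median depths of 2110 to 3547 UMIs beside 2088 to 4298 in macrophage-like cells, had thinned shares of 0% to 0.442% for Cxcl9. In WT IgG, 13 of 972 macrophage-like cells held 50% of the class's Cxcl9 UMIs and 62 held 50% of its Cxcl10 UMIs, and in tumor-like cells the numbers were 60 and 223 of 2009. In stromal-like cells, though, 5 of 147 cells held 50% of the Cxcl9 UMIs and 4 held 50% of the Cxcl10 UMIs. The counting intervals do not hold this spread between cells. In stromal-like cells the thinned shares, 13, 6.59, 9.5 and 8.76%, did not follow the levels, and no order is read from them.

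Cxcl9 was more often counted in cells that also held Cxcl10. Among thinned monocyte-like and macrophage-like cells, 11.2% of those with a Cxcl10 UMI held Cxcl9 in WT IgG, against 6.85% of those without. The shares were 14.1% and 3.76% in WT anti-PD1, 1.72% and 1.39% in A159V IgG, while they were 8.99% and 5.51% in A159V anti-PD1. In A159V IgG the shares lay within each other's intervals. Spp1, a gene of macrophages often set against Cxcl9, had lower shares of Cxcl9 in cells that held it in each library. In the pool of monocyte-like and macrophage-like cells, A159V anti-PD1 had 4.37% (2.94 to 6.21) with Spp1 and 8.01% (6.90 to 9.24) without. The intervals of the other libraries overlapped there. In macrophage-like cells alone the intervals overlapped in all 4 libraries. Macrophage-like cells with a Spp1 UMI held Cxcl9 in 5.22%, 6.17%, 0.25% and 3.23%, against 10.4%, 8%, 2.33% and 6.88% of cells without. Per 100 Spp1 UMIs, macrophage-like cells had 12.1, 23.8, 1.08 and 9.85 of Cxcl9, lowest in A159V IgG and highest in WT anti-PD1, where Spp1 was lower (1383, 443, 1489 and 1020.4 CPM).

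The cells that supplied a ligand's UMIs differed between libraries with their makeup. Tumor-like cells held 43.7, 8.9, 79.3 and 61.5% of the Cxcl9 UMIs, stromal-like cells 13.3, 63.3, 7.53 and 12.3%, macrophage-like cells 13.6, 15.8, 2.72 and 7.67% and monocyte-like cells 20.2, 1.63, 5.79 and 10.9%, of 5021, 5078, 1726 and 6913 UMIs in all. Although its level in CPM was low in tumor-like cells, their number and depth made them the largest holder in every library but WT anti-PD1. Tumor-like cells held 78.4, 28.2, 87.7 and 86.4% of the Cxcl10 UMIs, and macrophage-like cells 42.4% in WT anti-PD1. Cxcl16 lay mostly in macrophage-like cells, with 45.9, 62.1, 61.8 and 53.3%. These shares depend on the set mix of CD45+ and CD45− cells.

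**Figure D4:**
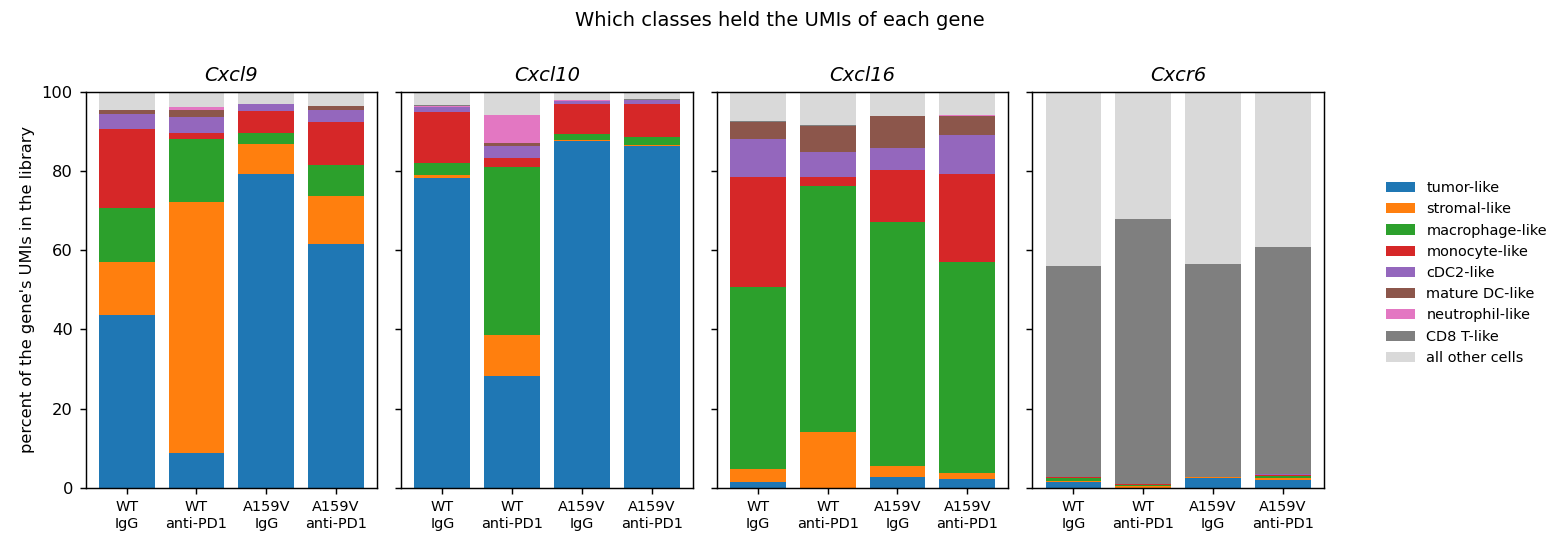
Percent of each gene's UMIs in a library that lay in each class, as stacked bars that sum to 100, for Cxcl9, Cxcl10, Cxcl16 and Cxcr6. Tumor-like cells fill 79.3% of the Cxcl9 bar of A159V IgG and 8.9% of that of WT anti-PD1, and CD8 T-like cells fill 53.4% to 67.1% of the Cxcr6 bars.

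On the receptor side, Cxcr6 was led by CD8 T-like, conventional CD4 T-like and gamma-delta T-like cells, and Cxcr3, among classes of at least 50 cells, by conventional CD4 T-like and regulatory T (Treg)-like cells in 3 of the libraries and by conventional CD4 T-like and CD8 T-like cells in WT anti-PD1. In CD8 T-like cells Cxcr6 was 244 CPM in WT IgG and 770.1 in WT anti-PD1, and 194 in A159V IgG against 286 in the A159V anti-PD1 library, with WT anti-PD1 alone high. Its log2 ratio was 1.66 (1.49 to 1.82) in WT anti-PD1 over WT IgG, 0.56 (0.28 to 0.84) in A159V anti-PD1 over A159V IgG and -0.33 (-0.61 to -0.04) in A159V IgG over WT IgG, the last turning to 0.15 as a mean over cells. After thinning, 30.6, 62.8, 22.4 and 33.2% of CD8 T-like cells held a Cxcr6 UMI, in the same order, against at most 0.0659% of stromal-like and 0.0501% of tumor-like cells, whose median depths were 7870 to 14170 and 29498 to 57927 UMIs. The CD8 T-like cells of the libraries came from different clusters. In WT anti-PD1, 456 of 537 were in a cluster nearly of that library alone, led by Csf1, Cxcr6 and Gzmk, with 805 CPM. In the shared cluster led by Gzmk and Ifit3 the levels were 242, 731, 317 and 269 CPM, and in that led by Gm156 and Ccl3 296, 927, 279 and 369 CPM, though WT anti-PD1 had 20 and 41 cells there. CD8 T-like cells of WT anti-PD1 also held the most RNA of stromal genes, with a sum of 668 CPM over 8 stromal markers against 35.9 to 60.9 in the other libraries. Other T-like classes shared this, with 821 CPM in conventional CD4 T-like and 635 in Treg-like cells of WT anti-PD1. In stromal-like cells Cxcr6 was under 1 CPM. How the stromal RNA goes with the Cxcr6 level was not tested.

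In conventional CD4 T-like cells Cxcr6 was 329, 415, 134 and 113 CPM, with the WT libraries above the A159V libraries, and the log2 ratio of the IgG libraries, A159V over WT, was -1.29 (-2.13 to -0.46). The A159V IgG value came from 78 cells with a median of 1127.5 UMIs, and 8.39% of all genes were past 2-fold lower in this class. The ratio was past 2-fold under 9 of 10 alternatives. In Treg-like cells Cxcr6 was 71.5, 115, 37.5 and 88.8 CPM, with a log2 ratio of 1.22 (0.34 to 2.10) for anti-PD1 in A159V tumors. Gamma-delta T-like cells had 852, 527, 762 and 731 CPM from 18, 11, 5 and 43 cells, too few for a ratio. NK-like cells had 13, 37.3, 6.67 and 6.32 CPM. Among CD8 T-like cells the thinned share with Cxcr6 was 26.7%, 44%, 5.88% and 21.4% where Tcf7, a gene of naive and stem-like T cells, had a UMI, and 31.1%, 63.9%, 24.2% and 33.8% where it had none. The Tcf7 groups held 14 to 30 cells, and each library's pair of intervals overlapped.

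Cxcr3, the receptor of CXCL9 and CXCL10, was 32.6 CPM in WT IgG and 72 in WT anti-PD1, and 44.2 in A159V IgG against 33.8 in the A159V anti-PD1 library among CD8 T-like cells, a log2 ratio of 1.12 (0.66 to 1.58) in WT anti-PD1 over WT IgG that was past 2-fold under 8 of 13 alternatives. The cluster led by Gzmk and Ifit3 had 107, 81.2, 96.1 and 90.4 CPM, the Gm156-led cluster 5.95, 5.98, 5.27 and 8.62 CPM, and the cluster of WT anti-PD1 alone 81.8 CPM. The libraries lay further apart in the cycling cluster, led by Nusap1 and Ube2c, which had 13, 46.4, 38.9 and 10.5 CPM, the WT anti-PD1 value from 20 cells. Both receptors were seldom counted in 1 cell. Of CD8 T-like cells with a Cxcr6 UMI 3.3%, 8.8%, 2.56% and 6.86% held Cxcr3 after thinning, against 5.83%, 8.93%, 8.89% and 7.8% of those without, with overlapping intervals. Conventional CD4 T-like cells had 146, 75.5, 92.7 and 108 CPM and Treg-like cells 79.3, 48.7, 68.8 and 55.5, WT IgG being the highest library for each. NK-like cells had 9.53, 37.9, 4.29 and 10.7 CPM, with log2 ratios of 1.88 (1.05 to 2.72) for anti-PD1 in WT and 1.15 (0.16 to 2.14) in A159V tumors. Of the 463 NK-like cells of WT anti-PD1, 413 were in a cluster that held 7 cells of WT IgG. The 8 stromal markers summed to 34.7, 692, 39.5 and 60.7 CPM in NK-like cells. The A159V ratio compared 17 UMIs with 9. It was past 2-fold under 9 of 13 alternatives, and the WT ratio under all 13. In NK-like cells 15.9% of all genes were past 2-fold higher with anti-PD1 in WT and 2.05% in A159V tumors.

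Over Cxcr3, Cxcr6 and Cxcr5 in the 4 receptor-bearing classes of sufficient size, 12 pairs in all, 0 pairs were higher and 1 was lower past 2-fold in A159V IgG over WT IgG, beside a background of 5.44% and 3.74%. With anti-PD1 in WT tumors 4 were higher, Cxcr3 and Cxcr6 in CD8 T-like and in NK-like cells, and 0 lower, beside 10.7% and 7.81%. With anti-PD1 in A159V tumors 2 were higher, Cxcr3 in NK-like and Cxcr6 in Treg-like cells, and 0 lower, beside 5.04% and 5.05%. At the minimum level were 7, 8 and 7 pairs.

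Cxcr5, the CXCL13 receptor of B cells and follicular T cells, was near absent from T-like cells, with 0 to 1.43 CPM in CD8 T-like and 0 to 9.44 in conventional CD4 T-like cells, at most 3 UMIs in a library. B-like cells had 88.5, 125, 165 and 104 CPM from 2, 10, 2 and 5 UMIs, in 11, 22, 11 and 31 cells. Neutrophil-like cells had 66.1, 99.5, 30.2 and 34.8 CPM and held 62% of its UMIs in WT anti-PD1, 93 UMIs in a class of 561 cells. In the other libraries tumor-like cells held 35 (WT IgG), 66 (A159V IgG) and 70 (A159V anti-PD1) of the Cxcr5 UMIs. These lay among 63505259, 88239985 and 89604013 UMIs of the class, under 1 CPM in each library. In A159V anti-PD1 1 cell held 17.1% of them, and no expression in tumor-like cells is read from these counts. Mature DC-like cells had 42.2, 13, 57 and 14.1 CPM from 9, 5, 12 and 3 UMIs, lower in the anti-PD1 libraries, with a log2 ratio of -1.62 (-3.12 to -0.13) in WT tumors and a ratio of levels of 0.247 (0.0447 to 0.915) in A159V tumors. The matrices gave 84 to 150 UMIs of Cxcr5 per library in all.

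**Figure D5:**
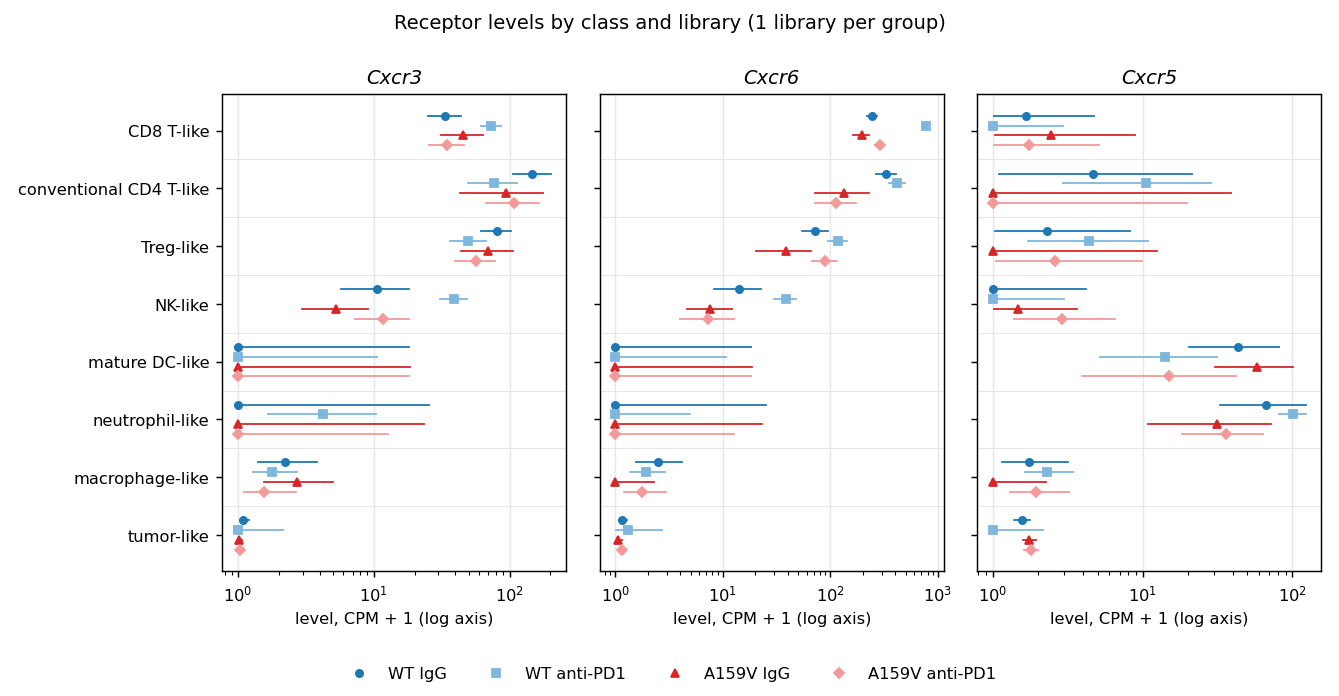
Level of each receptor as CPM + 1 on a log axis by class and library, for classes with at least 50 cells, with exact Poisson 95% intervals. For Cxcr6 in CD8 T-like cells the WT anti-PD1 square lies at 770.1 CPM and the other libraries at 194 to 286, while Cxcr5 is high in neutrophil-like and mature DC-like rows and near 0 in T-like rows.

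Genes of the interferon gamma arm, which induces Cxcl9 and Cxcl10, were followed as a list of 8, among them the cytokine gene Ifng, its receptor genes and genes of its signaling and feedback. In CD8 T-like cells Ifng, the interferon gamma gene itself, was 361 CPM in WT IgG and 336 in WT anti-PD1, and 141 in A159V IgG against 363 in the A159V anti-PD1 library, A159V IgG alone being low. Of 7 listed genes at the minimum level, Ifng, -1.35, and Irf1, -1.03, were past 2-fold lower in A159V IgG over WT IgG, beside a background of 2.04%, and Ifng, 1.36, was higher with anti-PD1 in A159V tumors, beside 2.65%. The medians of the list were 0.01 and 0.28, against a median of 0.04 over all genes in each comparison. With anti-PD1 in WT tumors Socs1 was the 1 gene past 2-fold, and it was lower. In NK-like cells Ifng was 120.4, 69.8, 42.4 and 45.5 CPM. In macrophage-like cells the interferon-induced Irf1 was 196, 389, 141 and 325 CPM and Socs1, a feedback inhibitor of the pathway, 59.3, 85.6, 26 and 71 CPM, each lowest in A159V IgG and highest in WT anti-PD1. Socs1 was the 1 listed gene of 7 past 2-fold lower in A159V IgG, with -1.16 (-1.52 to -0.80) beside 1.02%. The medians were -0.29 for the list and -0.02 for all genes. Irf1 and Socs1 were higher with anti-PD1 in A159V tumors, with 1.20 (1.04 to 1.35) and 1.41 (1.07 to 1.76) beside 1.51%, and medians of 0.29 and -0.04. In WT anti-PD1 over WT IgG 0 genes of the list were past 2-fold, with a median of 0.52 against -0.10. The receptor genes Ifngr1 and Ifngr2 in macrophage-like cells were 108, 192, 120.2 and 101 and 119, 102, 126 and 89.2 CPM. In tumor-like cells Ifngr1 was 35.6, 42, 21.1 and 21.3 CPM.

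Among CC ligands and receptors of T cells, 6 of 13 listed genes were at the minimum level in CD8 T-like cells. Ccl3, a CC chemokine gene whose product draws activated T cells and myeloid cells, was 394, 489, 103 and 462 CPM and, like Ifng, lowest in A159V IgG. Ccl3, Ccr7 and Ccr8 were past 2-fold lower in A159V IgG over WT IgG, beside a background of 2.04%, and Ccl3 higher with anti-PD1 in A159V tumors, beside 2.65%. The medians of the list were -1.30 and 0.79, against 0.04 over all genes in each comparison. With anti-PD1 in WT tumors 2 of the listed genes, Ccl4 among them, were higher, beside a background of 9.93%, and Ccr7 and Ccr8 lower, beside 8.77%, with a median of 0.27 against 0.19 over all genes. The metalloprotease genes Adam10 and Adam17, whose products shed CXCL16, were 128, 131, 107 and 117 and 212, 226, 176 and 202 CPM in macrophage-like cells. Dpp4, whose product trims CXCL9 and CXCL10, was 107, 136, 99.8 and 140.2 CPM in CD8 T-like cells. None of the 8 genes of chemokine receptor signaling in the list, such as Rac2 (536, 576, 495 and 477 CPM), was past 2-fold in CD8 T-like cells in any of the 3 comparisons. Pf4, the platelet factor 4 gene, was 1061, 1691, 2195 and 1834 CPM in macrophage-like cells, lowest in WT IgG, and past 2-fold higher in A159V IgG over WT IgG with a log2 ratio of 1.05 (0.99 to 1.10), beside a background of 0.731%. Cxcl11 was not analysed here. The atypical receptor gene Ackr3 was at 458, 377, 405 and 473 CPM in stromal-like cells. Of the 11 other CXC ligands and receptors listed, 5 were at the minimum level in macrophage-like cells, and 0 were past 2-fold in the comparisons with A159V IgG, while Cxcl1 was higher, beside a background of 5.23%, and Cxcl3 lower, beside 7.1%, in WT anti-PD1 over WT IgG.

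The genes whose levels were most like those of a member were ranked by Pearson r of log2(CPM + 1) over 50 profiles of class and library, among 9153 genes, as a description with no test, since profiles of 1 library share its depth and stray RNA. For Cxcl10 they were H3f3b, Oasl1, Rsad2, Bri3 and Atp6v0c (r from 0.89 down to 0.86), and Oasl1 and Rsad2 are interferon-induced genes. For Cxcl9 they were Zfp385a, Scpep1, Myadm, Pla2g4a and Creb5 (r from 0.81 down to 0.79). For Cxcl16 they were Slc29a3, H2-Ab1, Tnfrsf11a, Clic4 and Ctsh (r from 0.87 down to 0.85), H2-Ab1 being a class II antigen presentation gene. For Cxcl13 Rbp4, Reg3g, Ptx3 and Serpina3n were among the 5 (r from 0.97 down to 0.94). For Cxcr3 they were Lat, Cd28, Gimap3, Ctla4 and Icos (r from 0.96 down to 0.92), and for Cxcr6 Lat, Unc5cl, Cd3d, Themis and Cd3g (r from 0.95 down to 0.94), T cell genes for the most part. For Cxcr5 they were Gm26535, Mreg, Ankrd33b, Pnrc1 and Gm12216 (r from 0.79 down to 0.71). Cxcl9 and Cxcl10 had an r of 0.54 with each other, and Cxcr3 and Cxcr6 of 0.90. The genes named depend on the measure. By rank correlation (Spearman rho) none of those named for Cxcr6 and Cxcr5 was among the 5 highest, and for Cxcl9 only Zfp385a was. Their rho with Cxcr5 ran from 0.35 to 0.55, and that of Serpina3n with Cxcl13 was 0.55.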

How the data were processed

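Single-cell RNA-seq (10x 3′) was run on 1 library for each of the 4 groups. The authors deposited raw UMI counts per gene and cell barcode, neither normalized nor corrected for ambient RNA. The matrix headers name Cell Ranger 7.2.0, and the submitters' processing notes list 5.0.1 and mm10; the study counted intronic reads. Later steps of the study (decontX, DoubletFinder, SCTransform, integration) are not in these counts.

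Cells with more than 500 genes were kept. Within each library, cells with the most simulated doublets among their neighbors were removed, at 0.8% per 1000 cells (374 to 631 cells a library). Leiden clusters (2000 variable genes without the 7 members and the listed genes, 20 components, 20 neighbors, resolution 1, no integration) were made over all cells and again within T or NK, myeloid and B-lineage cells. A cluster took the name of its best marker list where at least 3 markers were detected and no list of another family had more of its 10 leading genes, and within T or NK, myeloid and B-lineage cells it stayed unnamed where a list of another compartment scored above 2 and above its own. Named clusters, 5 in all, still scored higher for stromal markers than for their own. Among the unnamed clusters were a shallow monocyte-like cluster of 1891 cells and T or NK clusters of 708, 264, 189 and 107 cells. The naming rule and a gate on marker UMIs, used as an alternative, were rewritten after their first output was seen.

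UMIs were summed per class and library as CPM, with exact Poisson intervals, and shares of cells were taken after thinning each cell to 1500 UMIs, with exact Clopper-Pearson intervals. Log2 ratios had delta-method intervals. All are at the 95% level and cover counting error only. With 0 UMIs in 1 library, bounds used a floor of 3 UMIs in that class. With 1 library per group no test was run. The ratio code was tested on simulated data. The 7 members, the gene lists and the markers were chosen with earlier results of these data known. Genes named are the members, the listed genes and, for each member, the 5 genes with the highest Pearson r over profiles of at least 50 cells, among genes at 50 CPM or more in 1 profile. Some of these genes are not reported here. Classes and clusters were named by marker and leading genes. Promoters and motifs came from RefSeq on GRCm38, and gene positions from GENCODE M21, which matched 32235 of 32285 genes (99.8%). Tools were python 3.11.15, numpy 2.4.6, scipy 1.17.1, pandas 2.3.3, scikit-learn 1.9.0, igraph 0.11.9, leidenalg 0.10.2 and matplotlib 3.10.9.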

Additional observations from a re-analysis of the deposited data

Results flagged for a closer look

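For 4 pairs of member and class and 1 pair in a pooled class, at the minimum level of 10 CPM, the log2 ratio of anti-PD1 over IgG had opposite signs in WT and A159V tumors with both intervals away from 0, each with 1 library per group. The difference between the genotypes was not tested, since no group had a replicate. For Cxcl9 the ratios were -0.66 in WT and 2.57 in A159V tumors in macrophage-like cells, -1.18 and 2.21 in stromal-like cells, and -0.78 and 2.23 in the pool of monocyte-like and macrophage-like cells. In stromal-like cells 1 cell held 21.5% of the A159V anti-PD1 UMIs. The pool held 1162 monocyte-like cells of 2346 in WT IgG and 53 of 1520 in WT anti-PD1, and monocyte-like cells alone had 0.44 in WT and 1.94 in A159V tumors. In the 3 myeloid clusters that could be compared in WT tumors the ratios of Cxcl9 were 0.10 to 0.71. Of these only the Cxcl3-led cluster, at 0.71, was macrophage-like, and the others were the whole cDC2-like and mature DC-like classes. The negative ratio of WT tumors was thus not seen in that cluster, and other macrophage-like clusters could not be compared. In the 2 comparable stromal-like clusters the WT ratios ran from -1.92 to -1.04. With anti-PD1 in A159V tumors, Cxcl9 was higher in 5 of 5 comparable clusters of tumor-like, stromal-like and neutrophil-like cells. For Cxcl16 they were -0.59 and 0.61 in cDC2-like cells. For Cxcl10 they were -0.39 and 0.20 in tumor-like cells, of which WT anti-PD1 held 57.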

How the results depend on the processing

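Of 40 ratios of a member in a class that were past 2-fold, 501 values were had under alternatives, of which 492 kept their sign, 444 stayed past 2-fold, 57 did not and 9 were reversed; where these differ, the cause was not tested. Cxcl9 in macrophage-like, monocyte-like, cDC2-like and mature DC-like cells in the comparisons with A159V IgG stayed past 2-fold under every alternative that gave a value, as did Cxcr6 in CD8 T-like cells in WT anti-PD1 over WT IgG. The exact interval of a ratio, leaving out the cell with the most UMIs of a gene in each library, and counting unnamed clusters with their best list were chosen after seeing the data. Settings that left a class under 50 cells gave no value. No paired analysis was possible because each group had 1 library. Median-of-ratios scaling moved the median of all genes by over 0.1 mainly in WT anti-PD1 over WT IgG (0.35 in NK-like and 0.31 in monocyte-like cells). Ambient RNA and the small classes limit genes near 10 CPM. Shares moved beyond their intervals in 158 of 362 values and sources in 35 of 56.

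Reversed values were -0.43 for Cxcl10 in mature DC-like cells (A159V anti-PD1 over A159V IgG, gate on marker UMIs), -0.48, -0.50 and -1.13 for Cxcl9 in neutrophil-like cells (WT anti-PD1 over WT IgG, with a mitochondrial limit of 10%, doublets kept and the gate), 0.90 and 0.0038 for Cxcl16 in stromal-like cells (WT anti-PD1 over WT IgG, libraries clustered 1 by 1 and the gate), and, with each library clustered on its own, 0.077 for Cxcl9 in stromal-like cells (WT anti-PD1 over WT IgG), -2.40 for Cxcl9 (A159V anti-PD1 over A159V IgG) and 0.19 for Cxcl16 (A159V IgG over WT IgG) in nonclassical monocyte-like cells.

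Cxcl9 in macrophage-like cells moved in A159V IgG over WT IgG to -3.73 with more than 1000 genes per cell, -2.69 with doublets kept, -4.04 with the gate and -2.64 as a mean over cells. In A159V anti-PD1 over A159V IgG it was 2.01 with doublets kept, 3.03 with each library clustered on its own, 3.15 with the gate and 1.99 as a mean over cells. In WT anti-PD1 over WT IgG it was -0.48 with the mitochondrial limit, -1.37 with doublets kept, -0.91 and -1.98 at resolutions 0.5 and 2, -1.43 with each library clustered on its own, -1.60 with the gate, -0.33 in cells without UMIs of other compartments and -0.25 as a mean over cells. Cxcr6 in CD8 T-like cells was -0.62 at resolution 2 and 0.15 as a mean over cells in A159V IgG over WT IgG, 1.46 with median-of-ratios scaling and 2.01 with unnamed clusters counted in WT anti-PD1 over WT IgG, and 0.85 at resolution 2 and 0.23 as a mean over cells in A159V anti-PD1 over A159V IgG.

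Counts of ligand pairs past 2-fold in A159V IgG over WT IgG became 2 higher and 5 lower with libraries clustered 1 by 1, and 1 higher with the gate or no minimum level. In WT anti-PD1 over WT IgG 1 ligand pair was higher with more than 1000 genes, the mitochondrial limit, doublets kept, cells without UMIs of other compartments or a minimum of 50 CPM. In A159V anti-PD1 over A159V IgG the ligand pairs that were lower numbered 2 with libraries clustered 1 by 1 and 0 without the top cell. Receptor pairs in A159V IgG over WT IgG numbered 1 higher at resolutions 0.5 and 2, 2 lower with the mitochondrial limit, each library clustered on its own, cells without UMIs of other compartments or without the top cell, and 0 lower with doublets kept or resolution 0.5. In WT anti-PD1 over WT IgG 2 receptor pairs were higher with a minimum of 50 CPM, 2 were lower with the gate, and 1 was lower with each library clustered on its own, median-of-ratios scaling or unnamed clusters counted. In A159V anti-PD1 over A159V IgG 1 receptor pair was higher with the gate, a pseudocount of 5 CPM, a minimum of 50 CPM or without the top cell, 0 as a mean over cells, and 1 was lower at resolution 0.5.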
